A study of Mus musculus with 8 samples.

Results

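The genes described here are the S100 calcium-binding proteins of the A series: those rows of the gene count table whose symbol is S100a followed by a number, among a list of 8 named genes. Of the 8, 7 were measured, out of 11354 genes in all: S100a8, S100a9, S100a4, S100a6, S100a10, S100a11 and S100a13. S100a1 was not analysed here. The study sequenced poly(A) RNA of mouse CD4 T cells taken back from hosts lacking RAG (RAG-/-), mice without T and B lymphocytes that keep their myeloid cells. In 4 libraries the donor cells are labelled wild type and in 4 they are labelled Nlrp6-/-. The strain background is Black6, and every host of both labels carries the RAG deficiency. Libraries are named by label and host number: WT 1, WT 2, WT 4 and WT 5 for the wild-type label, and for the knock-out label KO 1, KO 2, KO 4 and KO 5. Some label fields place the cells in the host spleen and others in the lining of the colon, so the tissue is not settled.

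S100 proteins are small proteins with paired EF-hand motifs, loops that bind calcium. Most work as dimers: calcium opens a surface through which they bind and alter other proteins. S100a8 and S100a9 form calprotectin, a complex that neutrophils and monocytes hold in large amounts in the cytosol, that withholds zinc and manganese from microbes and that alerts other cells through Tlr4. S100a4, S100a6, S100a10 and S100a11 are known to be higher in effector and memory T cells than in naive ones, where they bind annexins and proteins of the cytoskeleton. S100a13 is known for its part in the release of proteins that lack a signal peptide. The genes fall in this way into a neutrophil pair, an effector T cell group of 4 and S100a13.

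Totals ranged from 35198192 to 40310721 counts per library. A level is a CPM value, the count scaled to a common library size with TMM factors, and means over a label's 4 libraries carry their SD. Nlrp6, the gene named by the labels, went against them, with 3 to 8 counts in the libraries labelled wild type and 329 to 648 in those labelled knock-out. Every direction below is therefore that of a label and not of a genotype. T cell genes were abundant under both labels: Cd4, the receptor that names the cells, was at 1446 ± 112 CPM (labelled wild type) against 1222 ± 174 CPM (labelled knock-out) (edgeR adjusted p = 0.167). Macrophage and monocyte markers differed between the labels, and their values stand beside the results they move with.

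All 7 genes lie on chromosome 3 (GRCm38, the assembly that mm10 names). S100a13, S100a4, S100a6, S100a8 and S100a9 share a block of 181.5 kb from 90514233 to 90695721, and S100a11 and S100a10 lie 2825 kb further on, from 93520496 to 93564645. S100a8 (90669071 to 90670034, plus strand) and S100a9 (90692630 to 90695721, minus strand) are neighbours that point toward each other across 22.6 kb. In GENCODE's annotation the main transcript has 3 exons in each gene except S100a13, where it has 4. The 100 bases before the RefSeq start site are printed for S100a8 and S100a9, both called in edgeR's main fit below (GRCm38.p6). Those of S100a4 and S100a11 are printed too, which that fit did not call and some other settings called lower. The sequences are written 5′ to 3′ on the gene's own strand, with TATAAA and GGGCGG in capitals.
S100a8, chr3:90668971-90669070, plus strand: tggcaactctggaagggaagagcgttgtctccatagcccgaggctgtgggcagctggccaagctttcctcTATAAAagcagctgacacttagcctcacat
S100a9, chr3:90695722-90695821, minus strand: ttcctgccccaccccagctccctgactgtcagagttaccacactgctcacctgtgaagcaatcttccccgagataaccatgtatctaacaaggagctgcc
S100a4, chr3:90603670-90603769, plus strand: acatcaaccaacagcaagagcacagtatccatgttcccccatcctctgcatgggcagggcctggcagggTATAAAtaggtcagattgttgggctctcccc
S100a11, chr3:93520396-93520495, plus strand: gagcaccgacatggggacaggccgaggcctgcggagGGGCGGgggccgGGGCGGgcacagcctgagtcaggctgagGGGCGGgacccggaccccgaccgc

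RefSeq promoter windows, from 250 bases before to 50 bases after the start, were found for 6 of the 7 genes, and S100a10 has none here. TATAAA, a core promoter motif, was in the windows of S100a8, S100a9 and S100a4, against 13.6% of 32851 mouse windows of the same length. It begins 30 bases before the start of S100a8 and 31 bases before that of S100a4. In S100a9 it begins at base 1 of the annotated transcript, so the printed stretch ends just before it. GGGCGG, the GC box, was in S100a9 and 3 times in S100a11 (35.7% of all windows). GAGGAA, a core of sites of the myeloid factor PU.1, was in S100a8, S100a4 and S100a11 (28.3% of all windows), and TTGCNNAA, written for C/EBP factors, was in S100a9 alone of the 6 (10.8%). CACGTG, the E-box, was in S100a6 and S100a11 (7.15%), and TGANTCA, the AP-1 motif, in S100a11 alone of the 6 (7.81%). Both strands were searched and no match overlapped another. None of the 6 motifs was shared by S100a8 and S100a9 alone.

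Compared per length, as RPKM (CPM per kilobase of the gene length in the table), the effector T cell group stood far above the neutrophil pair under both labels. Under the wild-type label the order was S100a4 (722 ± 62.2 RPKM), S100a10 (579 ± 33.5), S100a11 (273 ± 24.7), S100a6 (259 ± 16.2), S100a13 (75.2 ± 2.20), S100a9 (9.21 ± 2.66) and S100a8 (6.07 ± 1.83) (SD, n = 4). Between neighbours in that order, S100a11 and S100a6, and S100a9 and S100a8, overlapped between libraries. The other neighbours did not. Under the knock-out label S100a4 (551 ± 94.5 RPKM) and S100a10 (550 ± 29.0) overlapped as well, which they did not do under the wild-type label. Further down, S100a6 (251 ± 37.7 RPKM) and S100a11 (236 ± 15.4) again overlapped, S100a13 was at 73.5 ± 4.03 RPKM, and S100a9 (23.7 ± 11.2) and S100a8 (22.1 ± 8.54) stood last. S100a9 ranged from 0.857% to 1.61% of the RPKM of S100a4 in libraries with the wild-type label, against 1.81% to 6.18% in those labelled knock-out.

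**Figure D1:**
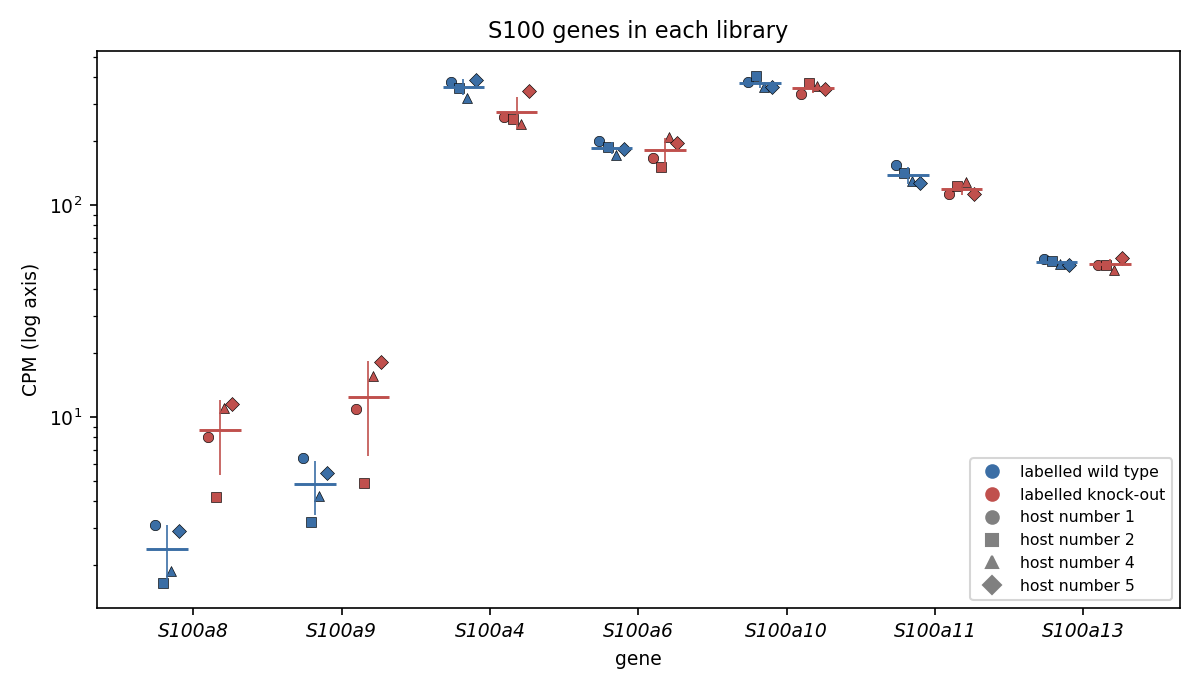
CPM (log axis) of the 7 S100 genes in each library, blue for the wild-type label and red for the knock-out label, with the host number as the marker shape, the mean as a horizontal bar and ± SD as a vertical line (n = 4 each). S100a8 is higher in every red library than in any blue one, S100a9 overlaps through KO 2, and in S100a4 the red KO 5 lies among the blue libraries.

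The labels set donor T cells with Nlrp6 against donor T cells without it. Since the counts of Nlrp6 ran against the labels, no difference below is read as an effect of its loss. The neutrophil pair rose in the libraries labelled knock-out, while no gene of the effector T cell group passed the test. In edgeR's quasi-likelihood test, adjusted over all 11354 genes, 2 of the 7 S100 genes were called higher and 0 lower, beside 10% of all genes called in either direction (6.2% higher and 3.84% lower). The groups did not overlap for 1 of the 7, S100a8, beside 16.0% of all genes (8.6% higher and 7.37% lower). The median log2 fold change, knock-out label over wild-type label, was -0.04 over the 7 and -0.0026 over all genes. Since the 7 were chosen with earlier results known, no test was made over them together.

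S100a8, the smaller calprotectin subunit, was at 3.08, 1.66, 1.87 and 2.90 CPM in WT 1, WT 2, WT 4 and WT 5. In KO 1, KO 2, KO 4 and KO 5 it was at 8.05, 4.20, 10.97 and 11.5 CPM. The lowest library labelled knock-out, KO 2, still lay above the highest labelled wild type, WT 1. Its mean went from 2.38 ± 0.718 to 8.68 ± 3.35 CPM (SD, n = 4 each). The rise was 3.64-fold, or 1.87 ± 0.33 on the log2 scale (SE, edgeR adjusted p = 0.00577). Its counts were low, 65 to 126 under the wild-type label and 165 to 456 under the knock-out label. The spread between libraries, a coefficient of variation of 30.2% and 38.6%, was nevertheless larger than counting error alone would give (10.3% and 5.53%). The call survived all 8 leave-one-out fits of edgeR, at adjusted p-values from 0.00137 to 0.0226.

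S100a9, the partner subunit, was at 6.41, 3.21, 4.25 and 5.43 CPM in WT 1, WT 2, WT 4 and WT 5. In KO 1, KO 2, KO 4 and KO 5 it was at 10.9, 4.86, 15.6 and 18.3 CPM. KO 2 lay inside the range of the libraries labelled wild type, and the other libraries labelled knock-out lay above it. The log2 fold change was 1.36 ± 0.37, from 4.83 ± 1.39 to 12.4 ± 5.88 CPM (SD, n = 4 each, edgeR adjusted p = 0.0488). Of the 8 leave-one-out fits, 1 kept the call, the one without KO 2 (1.63, edgeR adjusted p = 0.00453). It ended without WT 1, WT 2, WT 4, WT 5, KO 1, KO 4 or KO 5, with adjusted p up to 0.125.

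Within the pair, the ratio of the subunits did not overlap between the labels. The counts of S100a8 per count of S100a9 were 0.481, 0.516, 0.440 and 0.534 in WT 1, WT 2, WT 4 and WT 5. They were 0.735, 0.864, 0.702 and 0.630 in KO 1, KO 2, KO 4 and KO 5, all above the highest library labelled wild type. KO 2, which held the least of both transcripts under its label, had the highest ratio. The ratio averaged 0.493 ± 0.0415 (labelled wild type) against 0.733 ± 0.0979 (labelled knock-out, SD, n = 4 each), and it was not tested because both genes were chosen with their values known. The pair made up 0.424% to 0.804% of all S100 counts in the libraries labelled wild type and 0.937% to 2.72% in those labelled knock-out.

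The descriptions of the samples carry a run name with a number that is 8 for KO 4 and KO 5 and 7 for the other 6 libraries, and the pair was highest in KO 4 and KO 5. With this number as a term, which leaves KO 1 and KO 2 to carry the difference between the labels, the log2 fold change of S100a8 was 1.36 (edgeR adjusted p = 0.0319). That of S100a9 was 0.71 and did not pass (adjusted p = 0.315). No library labelled wild type has the number 8, so a comparison within it could not be made.

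Transcripts known from neutrophils moved with the pair. Of the 22 genes in the neutrophil list, which holds no S100 gene, 14 were measured, 9 rose and 0 fell (64.3%, beside 10% of all genes), at a median log2 fold change of 2.84. Their summed level ran from 140.2 to 184 CPM in libraries with the wild-type label, against 268 to 662 CPM in those labelled knock-out. Most of the former was Il1r2, a decoy receptor that T cells can express too, whose log2 fold change was -0.10 ± 0.19 (adjusted p = 0.827). The risers included Csf3r, the receptor of the neutrophil growth factor G-CSF (3.12 ± 0.32, edgeR adjusted p = 0.000415), the receptor Trem1 (3.28 ± 0.33), the interleukin gene Il1b (3.64 ± 0.36) and the lectin receptor Clec4e (3.38 ± 0.38). Macrophages and monocytes express Il1b, Clec4e, Trem1 and Csf3r too. Among the risers Trem1, Clec4d, Fpr2 and Mmp8 were below 0.987 CPM in every library labelled wild type. Every measured gene reached that level in 4 libraries, so these genes could be measured only as higher under the knock-out label. The share of risers was therefore partly fixed in advance.

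Genes of neutrophil granules are more particular to that cell type, and 12 of the 22 were grouped as granule, lineage and surface genes. Of these 12, 5 were measured, and 1 rose (20.0%, beside 10% of all genes, 6.2% higher). Ly6g, Mpo, Elane, Camp, Retnlg, Cebpe and Cxcr2 were not analysed here. Mmp8, a granule collagenase, rose from 0.183 ± 0.0757 to 1.68 ± 0.810 CPM (3.17 ± 0.43, adjusted p = 0.00137). Every measured gene reached 0.987 CPM in 4 libraries, and Mmp8 did so only under the knock-out label. Its presence among the measured genes thus depended on being higher there, which limits what the share of 20.0% shows. Ngp (1.58 ± 0.52, adjusted p = 0.0986), Ltf (1.44 ± 0.49, adjusted p = 0.108), Lcn2 (0.98 ± 0.55, adjusted p = 0.338) and Mmp9 (0.57 ± 0.24, adjusted p = 0.196) did not pass. Ngp and Ltf did pass in DESeq2 (adjusted p = 0.0216 and 0.0299) and in edgeR with KO 2 and KO 4 left out (adjusted p = 0.0301 and 0.00936). KO 2 and KO 4 held the lowest levels of both genes under their label, so leaving them out raised the estimates (2.11 and 2.05). Neither gene passed in limma-voom (adjusted p = 0.119 and 0.121) or in edgeR with the run-name number as a term (adjusted p = 0.356 and 0.349). None of the 5 measured genes had a mean of 0 under either label, and their summed level ran from 7.99 to 15.7 CPM under the wild-type label and from 11.6 to 28.3 CPM under the knock-out label. Lcn2, a granule protein that binds iron carriers of bacteria, was at 0.891 CPM in KO 2 and at 2.69, 3.11 and 4.59 CPM in KO 1, KO 4 and KO 5. As for S100a8 and S100a9, KO 2 was the lowest library of its label for Lcn2, Mmp9 (6.90 CPM), Mmp8 (1.12 CPM) and Ngp (1.25 CPM), while for Ltf it was KO 4 (1.23 CPM). The rest of the list went another way: of its 9 called genes KO 1 was the lowest for 8, the exception being Mmp8. Csf3r, for instance, was at 9.08 CPM in KO 1 and 13.5 CPM in KO 2.

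Markers of macrophages and monocytes rose in the same libraries. Of 19 genes 18 were measured, of which 16 rose and 0 fell (88.9%, beside 10% of all genes), at a median log2 fold change of 3.43. The smallest p was that of Csf1r, the receptor of the macrophage growth factor, at 4.38 ± 1.25 CPM (labelled wild type) against 67.7 ± 31.6 CPM (labelled knock-out) (3.95 ± 0.39, edgeR adjusted p = 0.000381). Csf1r was at 30.3, 59.7, 106 and 74.4 CPM in KO 1, KO 2, KO 4 and KO 5. KO 2 thus held more Csf1r than KO 1 did, whereas it held less S100a8 and S100a9. The summed level of the list ran from 58.6 to 99.9 CPM (labelled wild type) against 281 to 852 CPM (labelled knock-out). Its genes Fcgr1, Ms4a7, C3ar1 and Mertk were below 0.987 CPM in every library labelled wild type. Like Trem1 they could be measured only as higher, so the share of risers was partly fixed here too. With the mean log2 CPM of this list as a covariate, the log2 fold change was 0.45 for S100a8 (adjusted p = 0.999) and -0.23 for S100a9 (adjusted p = 0.999). With that of the neutrophil list it was -0.51 for S100a8 (adjusted p = 0.972) and -1.48 for S100a9 (adjusted p = 0.810). The part of such cells in the levels of the pair was not tested, and in these bulk libraries more cells of a type and more RNA per cell cannot be told apart.

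**Figure D2:**
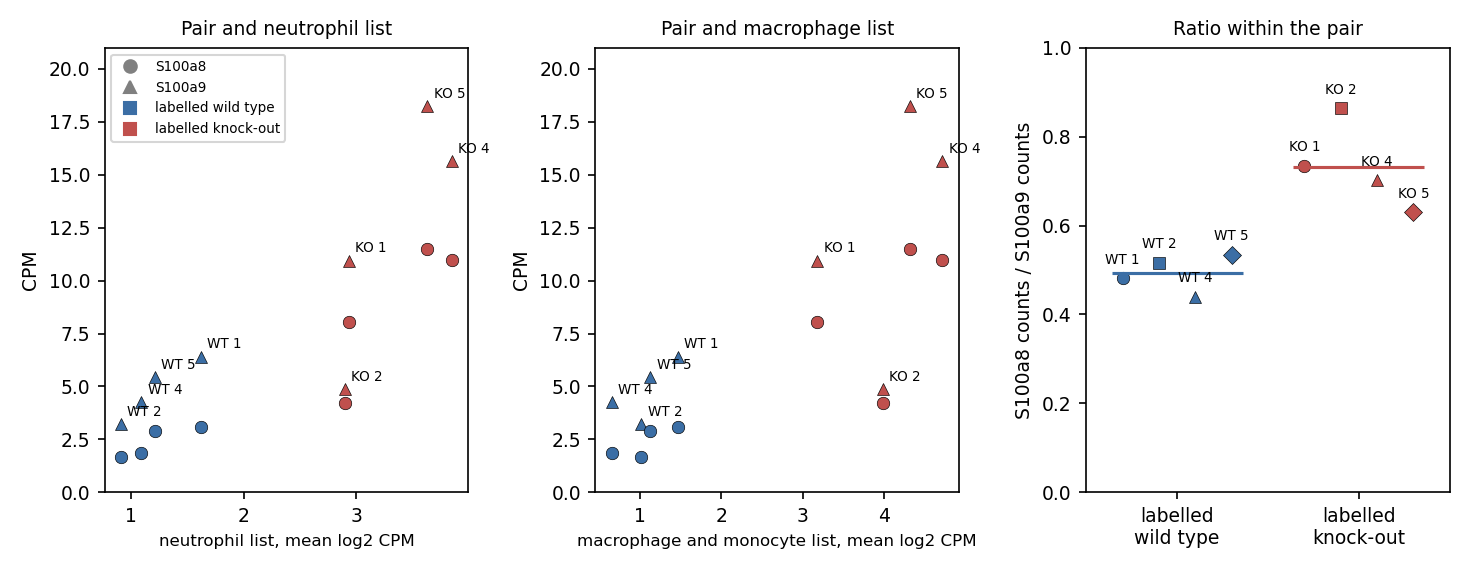
Left and middle, CPM of S100a8 (circles) and S100a9 (triangles) in each library against the mean log2 CPM of the neutrophil list and of the macrophage and monocyte list, blue for the wild-type label and red for the knock-out label. Right, counts of S100a8 over counts of S100a9 in each library with the mean of each label as a bar. KO 2 holds little of the pair (4.20 and 4.86 CPM) at a macrophage list level above that of KO 1, and the ratio is at most 0.534 in blue and at least 0.630 in red.

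Receptors and adaptors through which calprotectin acts, and other surface proteins reported to bind its subunits, were listed as 8 genes. All 8 were measured, 2 rose and 0 fell (25.0%, beside 10% of all genes), at a median log2 fold change of 0.17. Cd14, the co-receptor, rose from 3.38 ± 0.563 to 43.9 ± 23.9 CPM (3.69 ± 0.40, edgeR adjusted p = 0.000488). It is also one of the macrophage and monocyte markers. Tlr4 rose from 0.861 ± 0.390 to 3.19 ± 1.86 CPM (1.88 ± 0.46, adjusted p = 0.0294), and its groups overlapped, with 1.43 CPM in WT 2 and 1.37 CPM in KO 1. It was at 0.808, 0.582 and 0.626 CPM in WT 1, WT 4 and WT 5. Every measured gene reached 0.987 CPM in 4 libraries, so Tlr4 was measured through its level under the knock-out label. This limits what the share of 25.0% shows. Of the 8 leave-one-out fits, 4 kept the call of Tlr4 and it was lost without WT 1, WT 4, WT 5 or KO 5, with an edgeR adjusted p of up to 0.0864. It was also lost in limma-voom (adjusted p = 0.0800), in edgeR with KO 2 and KO 4 left out (adjusted p = 0.0970) and with the run-name number as a term (1.06, adjusted p = 0.194). Ager, the gene of the receptor RAGE (0.004 ± 0.17, adjusted p = 0.993), and the adaptor Myd88 (0.05 ± 0.07, adjusted p = 0.774) did not pass. Ager was at 1.51 ± 0.239 CPM (labelled wild type) against 1.51 ± 0.0777 CPM (labelled knock-out), and Myd88 at 64.3 ± 5.99 and 66.4 ± 3.85 CPM.

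The effector T cell group was lower by point estimate in all 4 genes and called in none. In edgeR 2 of the 4 had an unadjusted p below 0.05, beside 2666 of all 11354 genes. DESeq2 called 1 of the 4 lower and limma-voom called 2, beside 5.75% and 5.19% of all genes called lower. The group's summed level was 1060 ± 58.6 CPM (labelled wild type) against 932 ± 58.1 CPM (labelled knock-out) (SD, n = 4 each). S100a4, which binds non-muscle myosin, was at 379.7, 357, 318 and 387 CPM in WT 1, WT 2, WT 4 and WT 5. In KO 1, KO 2, KO 4 and KO 5 it was at 259, 255, 241 and 345 CPM. KO 5 lay among the libraries labelled wild type, and the other libraries labelled knock-out lay below all of them. The log2 fold change was -0.39 ± 0.11, which did not pass (edgeR adjusted p = 0.0585). It passed without KO 5 (-0.52, adjusted p = 0.00325), where edgeR called 8.6% of all genes (2.91% lower). It passed too in DESeq2 (-0.39, adjusted p = 0.00624), which called 13.9% (5.75% lower), and in limma-voom with quality weights (-0.41, adjusted p = 0.0240), which called 12.2% (5.19% lower). KO 4 and KO 5, which share the run-name number 8, held the lowest and the highest S100a4 level of their label. GENCODE's annotation has a read-through model, Gm42674, over S100a4 on the same strand, and how the authors' counting shared reads between them is not given in the sources used here.

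S100a11, a partner of annexin Anxa1, was at 154, 141, 129 and 127 CPM in WT 1, WT 2, WT 4 and WT 5. It was at 112.4, 123, 128 and 112.4 CPM in KO 1, KO 2, KO 4 and KO 5, so the groups met only through KO 4 and WT 5. The log2 fold change was -0.21 ± 0.07 (edgeR adjusted p = 0.103), and limma-voom with quality weights put it just past the threshold (-0.23, adjusted p = 0.0490). A pseudogene, S100a11-ps, lies on chromosome 12, so reads may have been shared with it and the count is uncertain to that extent.

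S100a10, which forms a tetramer with annexin Anxa2 at the cell membrane, was at 381, 405, 361 and 358 CPM in WT 1, WT 2, WT 4 and WT 5. It was at 333, 377, 365 and 353 CPM in KO 1, KO 2, KO 4 and KO 5, and the groups overlapped. The log2 fold change was -0.07 ± 0.05 (edgeR adjusted p = 0.477). S100a6, known as calcyclin, was at 201, 187, 172 and 184 CPM in WT 1, WT 2, WT 4 and WT 5. It was at 166, 151, 210.0 and 196 CPM in KO 1, KO 2, KO 4 and KO 5, so that the libraries labelled knock-out lay on both sides of those labelled wild type. The log2 fold change was -0.04 ± 0.10 (adjusted p = 0.858), and it was 0.03 without KO 2.

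S100a13 had the lowest spread of the 7 under the wild-type label, though not under the knock-out label, where S100a10 varied slightly less. It was at 55.8, 54.2, 52.8 and 52.3 CPM in WT 1, WT 2, WT 4 and WT 5 and at 52.1, 52.2, 49.5 and 56.4 CPM in KO 1, KO 2, KO 4 and KO 5. The coefficient of variation was 2.92% under the wild-type label and 5.49% under the knock-out label, beside counting errors of 2.17% and 2.24%. The log2 fold change was -0.03 ± 0.05 (edgeR adjusted p = 0.774). The first bases of S100a13 overlap those of S100a1 on the opposite strand, and the strand setting of the counting is not given in the sources used here.

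**Figure D3:**
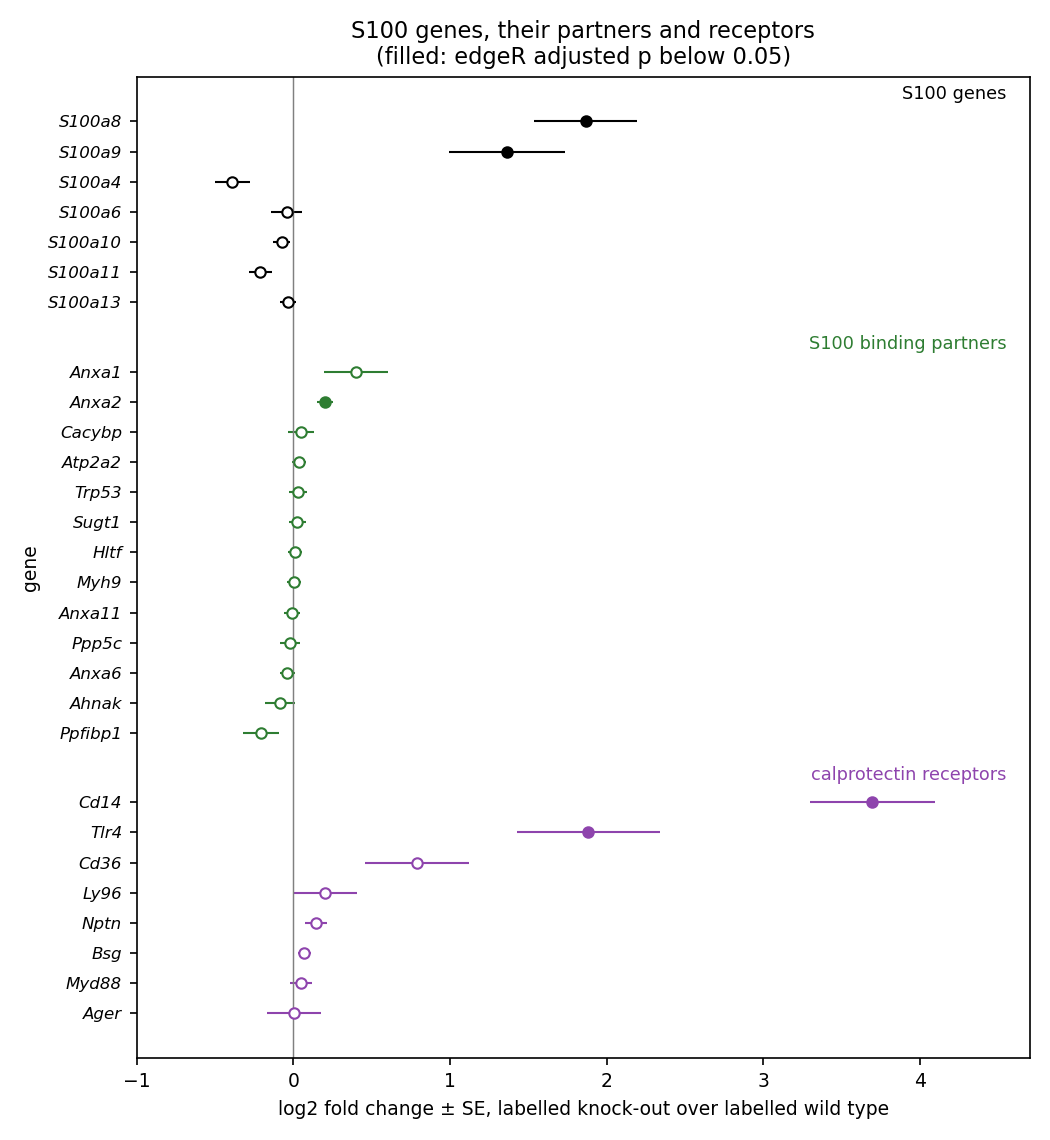
Log2 fold change ± SE, knock-out label over wild-type label, of the 7 S100 genes (black), 13 binding partners (green) and 8 receptors and adaptors of calprotectin (purple), with filled points where edgeR's adjusted p was below 0.05. Most partners sit near 0, with Anxa2 filled at 0.20, while S100a8, S100a9, Tlr4 and Cd14 lie between 1.36 and 3.69.

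Proteins that S100 proteins bind inside the cell were listed as 13 genes, all of which were measured. Of these 1 rose and 0 fell (7.69%, beside 10% of all genes), at a median log2 fold change of 0.01. The riser was Anxa2, the partner of S100a10. It was at 269.8, 276, 254 and 272 CPM in WT 1, WT 2, WT 4 and WT 5 and at 304, 329, 285 and 317 CPM in KO 1, KO 2, KO 4 and KO 5. The groups did not overlap, and the log2 fold change was 0.20 ± 0.05 (edgeR adjusted p = 0.0330). Of the 8 leave-one-out fits, 1 kept this call, without KO 4 (edgeR adjusted p = 0.0102). It ended without WT 1, WT 2, WT 4, WT 5, KO 1, KO 2 or KO 5, with adjusted p up to 0.118, and with scaling by total library size (0.19, adjusted p = 0.0669), where 0 of the 13 were called. It ended too without KO 2 and KO 4 (edgeR adjusted p = 0.0551). Anxa2 was called in DESeq2 (adjusted p = 0.00322), in limma-voom (0.0137) and in edgeR with the host number as a block (0.0228). S100a10 itself had a log2 fold change of -0.07, so the transcripts of the 2 partners had estimates of opposite sign. Ahnak, a giant scaffold that binds the complex of both, was at 1872 ± 230 CPM (labelled wild type) against 1763 ± 141 CPM (labelled knock-out) (-0.09 ± 0.09, adjusted p = 0.662). Myh9, the myosin heavy chain that S100a4 binds, had a log2 fold change of 0.003 ± 0.05 (adjusted p = 0.982; -0.01 with total library size), and Cacybp, which binds S100a6, of 0.05 ± 0.08 (adjusted p = 0.803).

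Of 11 annexins 9 were measured, 2 rose and 0 fell (22.2%, beside 10% of all genes), at a median log2 fold change of -0.04. Beside Anxa2, Anxa3, an annexin known from neutrophils and monocytes, rose from 0.786 ± 0.265 to 2.74 ± 1.09 CPM (1.80 ± 0.35, edgeR adjusted p = 0.0103), and its call survived all 8 leave-one-out fits. Anxa3 was at 0.881, 0.841, 0.405 and 1.02 CPM in WT 1, WT 2, WT 4 and WT 5. Every measured gene reached 0.987 CPM in 4 libraries, so Anxa3 was measured through its level under the knock-out label. This limits what the share of 22.2% shows. With the run-name number as a term neither annexin was called (Anxa3 1.25, edgeR adjusted p = 0.0608, and Anxa2 0.24, adjusted p = 0.0632). Of 23 other EF-hand genes 22 were measured, 1 rose and 0 fell (1 of 22, beside the same 10%), with a median of -0.02. That riser was Aif1, a myeloid actin-binding protein (2.55 ± 0.36, adjusted p = 0.00169). With the macrophage and monocyte level as a covariate, the estimates for Anxa3 and Aif1 were -0.81 and -0.79.

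All 26 listed other genes of effector T cells were measured, 1 rose (Anxa2, also among the binding partners) and 0 fell (3.85%, beside 10% of all genes), at a median log2 fold change of 0.001. Their summed level ran from 12660 to 13650 CPM under the wild-type label and from 12100 to 13560 CPM under the knock-out label. Lgals1, a galectin of activated T cells, had an estimate of -0.002 ± 0.10 on the log2 scale (edgeR adjusted p = 0.993), and Lgals3 of 0.17 ± 0.18 (adjusted p = 0.664). Prdm1 (-0.41 ± 0.13, adjusted p = 0.0764) and Ccl5 (-0.71 ± 0.24, adjusted p = 0.103) did not pass, although without KO 4 both did (adjusted p = 0.000173 and 0.00489), as they did in limma-voom (0.00514 and 0.0135) and without KO 2 and KO 4 (0.000869 and 0.0237). Prdm1 passed in DESeq2 (0.0116), with total library size (0.0441) and with the run-name number (0.0122) too. In the list of naive and memory T cells, 10 of 11 genes were measured, 3 rose and 0 fell (30.0%), namely Tcf7 (0.61 ± 0.10), Ccr7 (1.00 ± 0.18) and Il7r (0.76 ± 0.18). The call of Il7r was lost without WT 1, WT 4, KO 1 or KO 2, with an edgeR adjusted p of up to 0.0736. It was lost with the run-name number as a term too (adjusted p = 0.0568), and without both KO 2 and KO 4 neither Il7r (adjusted p = 0.131) nor Ccr7 (0.0576) was called. Il7r did pass in DESeq2 (adjusted p = 0.0043) and in limma-voom (0.0193). In the T cell identity list of 12, 0 rose and 2 fell (16.7%): Zap70 (-0.27 ± 0.07, adjusted p = 0.0304) and Cd247 (-0.40 ± 0.11, adjusted p = 0.0444). Both signal from the T cell receptor. Leave-one-out fits lost Zap70 without WT 1, WT 2, KO 1, KO 2 or KO 5 (edgeR adjusted p up to 0.0876) and Cd247 without WT 1, WT 2, WT 4, KO 1, KO 2 or KO 5 (up to 0.118). Zap70 was lost with the run-name number as a term as well (adjusted p = 0.0695). Zap70 and Cd247 both passed in DESeq2 (adjusted p = 0.00194 and 0.00295) and in limma-voom (0.0091 and 0.0048). Of this list of 12, DESeq2 called 1 gene higher and 3 lower, beside 13.9% of all genes (5.75% lower). In limma-voom 0 were called higher and 5 lower, beside 12.2% of all genes (5.19% lower). With 1 library left out, edgeR called from 0 to 5 of the 12 lower, beside 276 to 509 of all 11354 genes.

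No measured gene around the S100 genes was called. Within 500 kb of a measured S100 gene, 16 other genes were measured. Of these edgeR called 0 in either direction, as did DESeq2 and limma-voom. This stands beside 9.0% of 522 genes on chromosome 3 called in edgeR. An unadjusted p below 0.05 in edgeR was found for 3 of the 16, beside 2666 of all 11354 genes. The median log2 fold change of the 16 was 0.02. Except for 4930529C04Rik, 375941 bases past S100a9, they all lie before S100a13. None lies between genes of the first block or within 500 kb of S100a11 or S100a10. The nearest, Chtop at 4706 bases from S100a13, had an estimate of 0.03 ± 0.04 on the log2 scale (edgeR adjusted p = 0.804). S100a6, the measured S100 gene next to S100a8, is in the same block and had a log2 fold change of -0.04.

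**Figure D4:**
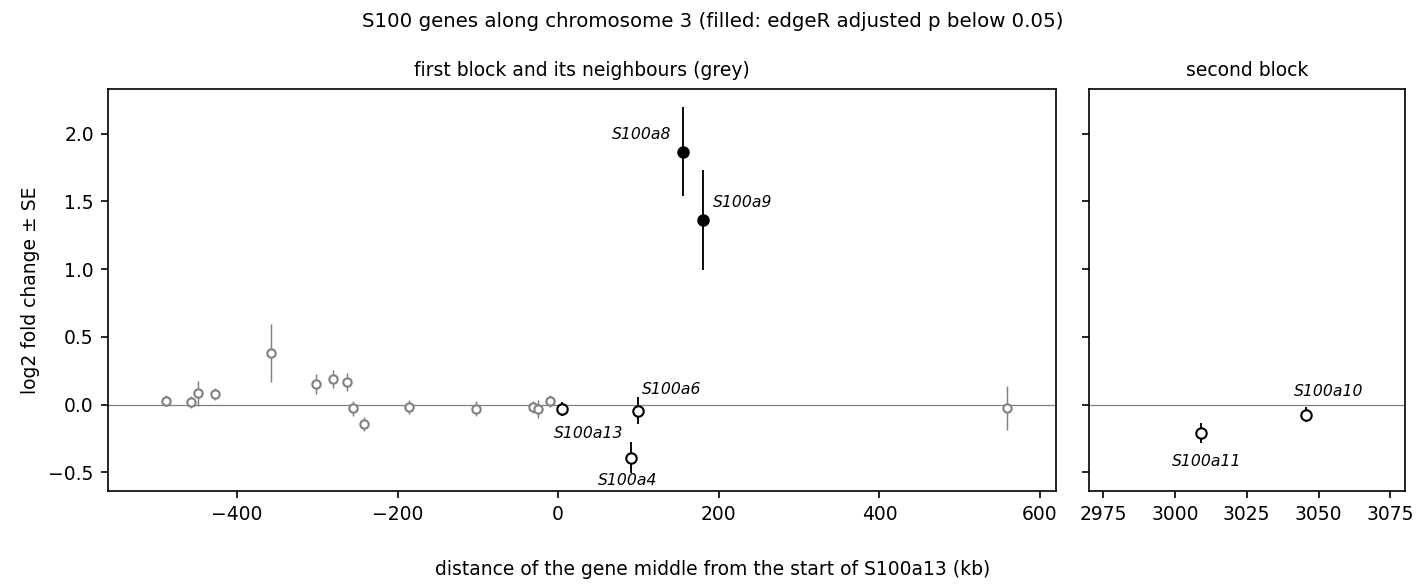
Log2 fold change ± SE of the S100 genes (black) and their measured neighbours (grey) against the distance of the gene's middle from the start of S100a13 in kb, with the block of 5 genes and its surroundings on the left and S100a11 and S100a10 on the right. S100a8 (1.87) and S100a9 (1.36) stand alone above 16 neighbours, none of which was called.

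The genes whose level followed that of S100a8 most closely over the 8 libraries were Slc7a7, an amino acid transporter subunit, Fn1, the gene of fibronectin, and Ms4a8a. Likeness was measured as the root mean square distance between log2 CPM values, each centred on its gene's mean, and was 0.273, 0.298 and 0.305. S100a9 came next, at 0.308. Fn1 was at 7.61 ± 2.97 CPM (labelled wild type) against 25.8 ± 9.22 CPM (labelled knock-out). Slc7a7 was at 0.583 ± 0.107 against 1.89 ± 0.555 CPM and Ms4a8a at 0.694 ± 0.286 against 1.92 ± 0.713 CPM. Every measured gene reached 0.987 CPM in 4 libraries, so Slc7a7 and Ms4a8a were measured through their level under the knock-out label. Their likeness to S100a8 was therefore partly fixed in advance. For S100a9 the closest genes were S100a8 (0.308), Il2 (0.334) and the tubulin gene Tubb6 (0.342). For S100a4 they were Zfpm1 (0.083), Cryl1 (0.0864) and Nrxn2 (0.0876), and no other S100 gene was nearer than rank 1256 (S100a13, 0.221).

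The calls of S100a8 and S100a9 were recomputed with other tools and libraries. Beside the leave-one-out fits, S100a8 was called higher in DESeq2 (adjusted p = 2.74e-07), limma-voom (0.0251) and the fit without KO 2 and KO 4 (0.00275). S100a9 was called in DESeq2 (adjusted p = 0.00149) and not in limma-voom (1.09, adjusted p = 0.160).

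**Figure D5:**
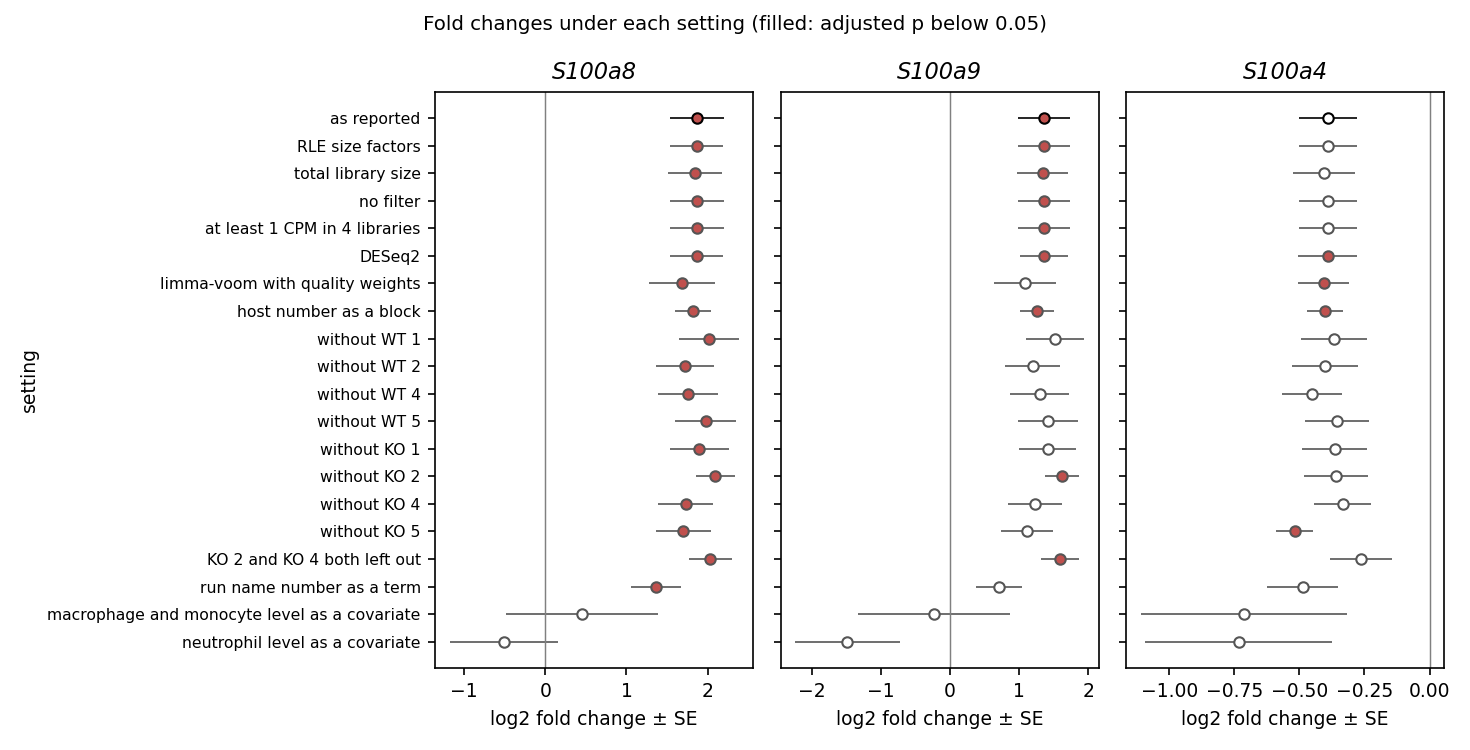
Log2 fold change ± SE of S100a8, S100a9 and S100a4, knock-out label over wild-type label, under each of 20 settings, with filled points where the adjusted p was below 0.05. S100a8 is filled in all settings except the 2 with a covariate, S100a9 keeps its call in 1 of the 8 fits that leave out 1 library, and S100a4 gains one in DESeq2, in limma-voom, with the host number as a block (where 8.98% of all genes were called, 3.36% lower) and without KO 5.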

How the data were processed

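RNA of 8 samples was made into stranded poly(A) libraries and read as single reads of 81 bases, per the labels' protocols. Reads were aligned to mm10 with STAR, per the submitters' processing notes. How reads were counted, on which annotation and with which strand setting, is not given in the sources used here. The authors' deposited table holds raw counts, whole numbers whose totals differ by library, and a length in bases for each gene. Each gene in it reached at least 0.987 CPM in 4 libraries, so genes of low count had been removed.

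Counts were scaled with TMM and tested in edgeR (estimateDisp, glmQLFit, glmQLFTest) on the label over all 8 libraries, with Benjamini-Hochberg adjustment over 11354 genes and a threshold of 0.05. filterByExpr kept all 11354. The SE was taken as the size of the log2 fold change divided by the root of F. The code was tested on simulated data. Within a label each library has its own host number. The labels do not state whether a number marks the same mouse under both labels. The p-values cover only the spread seen among these libraries, and what part of it is technical is not known. Positions and promoters come from RefSeq (GRCm38.p6; 11337 genes matched by identifier), and exon numbers from GENCODE.

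The members, the gene lists and the rule for named genes were chosen with earlier results of these data known. The rule takes the S100 genes, set partners and markers, up to 4 genes of smallest p per list, the 3 genes of most like pattern and called neighbours. The lists cover S100 binding partners, annexins, calprotectin receptors, neutrophils and their granule genes, macrophages and monocytes, dendritic cells, effector, naive and memory T cells, T cell identity, other EF-hand proteins, epithelium, stroma, B, natural killer and red cells. Lcn2, Myd88, Ager, Il1r2, Cd4, Chtop and the pair's ratio were added after their values were seen. Alternatives were RLE factors, total library size, 2 filters, DESeq2, limma-voom, the host number, 1 or 2 libraries left out, the run-name number and 2 covariates. The versions were edgeR 4.0.16, limma 3.58.1 and DESeq2 1.42.0 in R 4.3.3, with tables and figures made in Python 3.11.15 (pandas 2.3.3, matplotlib 3.10.9).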

Additional observations from a re-analysis of the deposited data

Results flagged for a closer look

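S100a4 in KO 5, at 345 CPM, stood apart from the other libraries labelled knock-out, which ran from 241 to 259 CPM. Its gap to the nearest of them was 0.83 of the range of the 4 libraries, just past the 95% critical value of Dixon's test for 4 samples. The same rule was applied to each of the 7 S100 genes and to the ratio of the pair, under both labels. Chance marks about 1 in 20 such groups, so 1 mark in this search is not unusual. Without KO 5 the log2 fold change of S100a4 was -0.52 (edgeR adjusted p = 0.00325).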

How the results depend on the processing

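S100a8 stayed higher and called except with a covariate: its log2 fold change was 0.45 with the macrophage and monocyte level and -0.51 with the neutrophil level. Without 1 library it ran from 1.70 to 2.09. S100a9 was not called in limma-voom (1.09) or with the run-name number as a term (0.71), and reversed with the macrophage and monocyte level (-0.23) and the neutrophil level (-1.48). Without 1 library it ran from 1.12 to 1.63. S100a4 was called in DESeq2 (-0.39) and limma-voom (-0.41), and ran from -0.52 to -0.33 without 1 library. S100a11 was called in limma-voom (-0.23), S100a6 ran from -0.13 to 0.032 without 1 library, and S100a13 reversed without KO 2 and KO 4 (0.0062). S100a1 has no value under any setting.

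Of the S100 genes 1 was called with the run-name number as a term and 0 with either covariate, and from 1 to 2 without 1 library. Of all genes 745 were called with the run-name number, 6 with the macrophage and monocyte level and 18 with the neutrophil level. Each covariate was made from the same libraries and differed between the labels without overlap, so little of the label's difference was left to test, and the cause of the other changes was not tested. The counts of S100a8 and S100a9, at most 724 in a library, limit their precision more than that of the other S100 genes.

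Correlations of same-numbered deviations were -0.06, 0.182, -0.138 and 0.256, beside -0.265 to 0.198 between libraries of unlike numbers. So few values cannot decide whether the host numbers pair the libraries. With the host number as a block, S100a4 was called (-0.40, edgeR adjusted p = 0.0194), S100a8 and S100a9 were called (1.82 and 1.27), and 1020 genes were called in all. Under this block Tlr4 (adjusted p = 0.0877), Il7r (0.0737) and Zap70 (0.0857) lost their calls in edgeR, and Ccl5 gained one (0.0399).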

Other observations

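Of the lists for other cells, dendritic cell and MHC class II genes had 8 of 11 measured, of which 6 rose and 0 fell (75.0%, beside 10% of all genes). The risers were Cd74, H2-Aa, H2-Ab1, H2-Eb1, Ciita and Sirpa. Itgax (0.45 ± 0.29, edgeR adjusted p = 0.405) and Zbtb46 (0.10 ± 0.19, adjusted p = 0.833) did not pass. Flt3, Xcr1 and Clec9a were not analysed here. Cd74, the invariant chain of MHC class II, was at 46.1 ± 8.44 CPM (labelled wild type) against 401 ± 159 CPM (labelled knock-out) (3.12 ± 0.29, edgeR adjusted p = 0.000309). Of 5 natural killer cell genes 4 were measured and 2 rose (2 of 4, beside the same 10%), the adaptors Fcer1g (3.65 ± 0.37) and Tyrobp (3.35 ± 0.41), which myeloid cells express as well. Epithelial (5 of 9 measured), stromal and endothelial (9 of 9) and red cell genes (2 of 3) had 0 called in edgeR. An unadjusted p below 0.05 in edgeR was found for 1, 3 and 0 of them, beside 2666 of all 11354 genes. Of these lists, the stromal one had 1 gene called higher by DESeq2, and 1 by limma-voom, beside 13.9% and 12.2% of all genes called. The epithelial and red cell lists had 0 called by either, and the B cell list had 0 of 4 measured.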
